A study of Homo sapiens with 6 samples.

Results

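BMPR2 and WWP2 are targeted by 20 of the 3653 guide RNAs in a pooled CRISPR library against 348 genes, 10 guides for each. All guides that the count table assigns to either gene were taken, and each was followed through the 6 sequenced libraries of the screen. The genes were selected on their tumour values: guides against both were more abundant in the tumours than at day 0. Those values are therefore given as a description and without a test, and only the change in culture, which did not choose the genes, was tested. The screen was made in HS-SY-II-Cas9 cells, a human synovial sarcoma line with the SS18::SSX1 fusion that carries Cas9, and its genes were picked by the study because synovial sarcoma lines depend on them more than other cancer lines do. There were 2 libraries from tumours that the transduced cells formed under the skin of athymic nude mice, 2 from cells cultured in vitro for 14 days, and 2 from the day 0 cells. All 3 groups were the same line with the same library after puromycin selection. Nude mice have few T cells, and the abundance of a guide reports on the human cells that carry it and not on the host. The labels number the tumours replicates 1 and 2, whereas an appendix plot of the study names both as mice of replicate 1. Whether they came from 1 transduction is therefore not settled. By the study's methods several mice received cells of each replicate, and the labels do not give how many tumours a library holds. Each of these libraries is called a tumour below.

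BMPR2 encodes the type II receptor for bone morphogenetic proteins (BMPs), a serine/threonine kinase of the cell surface. Upon ligand binding it phosphorylates type I receptors, which in turn phosphorylate the receptor SMADs of the BMP branch, and these enter the nucleus with SMAD4. WWP2 is a ubiquitin ligase of the NEDD4 family, with a HECT domain and WW domains that bind short proline-rich motifs, and SMAD proteins are among its known substrates. In a knockout screen a guide that becomes more abundant marks cells that outgrew the others or that founded a larger part of the population, and a guide that becomes rarer marks cells that were lost or grew more slowly. In the hg38 annotation of GENCODE v44, BMPR2 (ENSG00000204217.16) lies on the plus strand of chromosome 2 from 202376327 to 202567751, with 13 exons that all hold coding sequence and a reading frame of 1038 codons. WWP2 (ENSG00000198373.13) lies on the plus strand of chromosome 16 from 69762328 to 69941741, with 24 exons, of which 23 are coding, and a frame of 870 codons. The guide sequences were not used here, so the exon that each guide cuts is not given. The guides of a gene follow each other in the library's numbering, 5 in the first part of it (sgRNA_116 to sgRNA_120 for BMPR2, sgRNA_1461 to sgRNA_1465 for WWP2) and 5 in the second part (sgRNA_2081 to sgRNA_2085, sgRNA_2836 to sgRNA_2840). The numbering follows the alphabet of gene names throughout the first part and not in the second, and the parts are referred to as first set and second set.

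The tumour libraries held 4457673 and 8530791 counts, the day 14 libraries 3394352 and 4052307, and the day 0 libraries 21854232 and 4521533. Levels are given as CPM, a guide's counts for every 1000000 counts of its library, after TMM scaling, which sets libraries on a common scale by a trimmed mean over guides. A log2 fold change is the log2 ratio of the group levels fitted by edgeR. It is not a mean of log2 values, so 1 high library can raise it. The 3607 guides that averaged 30 counts or more at day 0 entered the fit, all 20 of BMPR2 and WWP2 among them. Over these guides the tumours correlated with each other at r = 0.66 on log2 CPM, the day 14 libraries at 0.85 and the day 0 libraries at 0.672. On the TMM scale the 183 non-targeting guides, which have no target gene, stood at a median of 0.57 (log2 fold change) in tumours and 0.50 at day 14 against day 0, whereas all guides together were at 0.02 and 0.02. First set guides of genes had medians of 0.52 and 0.41, close to the non-targeting ones, and second set guides -0.61 and -0.57. Values against day 0 are thus to be read beside these medians, which are repeated below for some of them only. Scaling to the non-targeting guides instead moved the median of all guides by -0.52 in tumours and by -0.50 at day 14 against day 0, and by -0.01 between tumours and day 14. Single guides without a target also differed widely in the tumours. The highest non-targeting guide in tumour 1 stood 29.7-fold above its day 0 mean there. A different non-targeting guide was the highest in tumour 2, at 27.2-fold. No non-targeting guide had a log2 ratio to its day 0 mean above 3.52 in both tumours. Of the non-targeting guides, 27 were at least 4-fold above day 0 in 1 tumour only and 2 in both. The part of such spread in the values of BMPR2 and WWP2 was not tested.

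The most abundant guides of either gene in the tumours were second set guides of BMPR2. sgRNA_2083 had 5847 and 5561 CPM in the tumours, 168 and 207 CPM at day 14 and 169 and 180.1 CPM at day 0. Both tumours stood far above the other 4 libraries, which overlapped. Its log2 fold change in tumours against day 0 was 5.03, or 32.7-fold, the third highest of the 3607 guides, and the 4 tumour and day 0 pairs ranged from 4.94 to 5.10. sgRNA_2081 had 5336 and 6431 CPM in the tumours, against 171 and 289 CPM at day 14 and 555 and 409 CPM at day 0. It was the guide of rank 8 by abundance in tumour 1 and of rank 3 in tumour 2, and its log2 fold change against day 0 was 3.61, or 12.2-fold. sgRNA_2084 had 3730 and 2978 CPM in the tumours, 155 and 237 CPM at day 14 and 447 and 354.5 CPM at day 0, a log2 fold change of 3.06 in tumours against day 0. sgRNA_2081 and sgRNA_2084 shared an order of the groups that did not overlap: highest in the tumours, intermediate at day 0 and lowest at day 14.

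sgRNA_2082 showed the same order at a lower level. It had 1633 and 790.2 CPM in the tumours, 83.3 and 134 CPM at day 14 and 220.2 and 229 CPM at day 0, a log2 fold change of 2.43 in tumours against day 0. sgRNA_2085 was high in 1 tumour alone, with 2471 and 179 CPM in the tumours, 227 and 152 CPM at day 14 and 249.8 and 298 CPM at day 0. Tumour 2 lay below both day 0 libraries, and the pairs behind its log2 fold change of 2.27 ranged from -0.73 to 3.30. All 5 second set guides were thus at least 4-fold higher in tumours than at day 0 by the fit, as were 4.74% of all guides and 3.05% of second set guides. In 4 of them both tumours were above both day 0 libraries (23.9% of all guides and 12% of second set guides), and sgRNA_2085 was high through tumour 1 alone. Scaled to the non-targeting guides, the log2 fold changes of the 5 guides were between 1.70 and 4.52.

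The first set guides of BMPR2 moved less and agreed less between the tumours. sgRNA_116 had 1033 and 966 CPM in the tumours, 977 and 669 CPM at day 14 and 279 and 526 CPM at day 0. It was above day 0 in both tumours and in both cultures, and tumours and cultures overlapped (log2 fold change 0.28 between them). sgRNA_118 had 93.1 and 1119 CPM in the tumours, 408.5 and 527.5 CPM at day 14 and 147 and 225 CPM at day 0, so that tumour 1 was the lowest and tumour 2 the highest of the 6 libraries. sgRNA_120 had 923 and 219 CPM in the tumours, 175 and 318 CPM at day 14 and 251 and 141 CPM at day 0, and was high in tumour 1 alone. sgRNA_117 and sgRNA_119 overlapped between tumours and day 0, with log2 fold changes of 0.44 and -0.21. Of the 5 first set guides, 1 had both tumours above both day 0 libraries (37% of all first set guides), and none had both tumours above both day 14 libraries (20.7%). For sgRNA_119 both tumours, at 164 and 246 CPM, were below both day 14 libraries, at 298 and 318 CPM.

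Summed over its 10 guides, BMPR2 took 1.75% of all counts in tumour 1 (95% Wilson interval 1.74 to 1.76) and 1.46% in tumour 2 (1.45 to 1.47). At day 14 it took 0.356% (0.350 to 0.363) and 0.357% (0.351 to 0.363), and at day 0 0.315% (0.313 to 0.318) and 0.339% (0.334 to 0.345). These intervals treat every read as independent, which PCR reads are not, and they hold no spread between libraries. By these shares both tumours lay above the other 4 libraries, which were within a narrow range. The gene sum had a log2 fold change of 2.81 in tumours against day 0, or 7.01-fold, with library pairs from 2.67 to 2.95, and of 2.67 against day 14, with pairs from 2.56 to 2.78. Both were the highest of the 348 genes, whose median gene sum stood at 0.40 and 0.39. Of the BMPR2 counts, sgRNA_2083 made up 27.0% in tumour 1 and 29.4% in tumour 2, against 5.33% and 6.47% at day 14 and 6.02% and 6.04% at day 0. sgRNA_2081 made up another 24.66% and 33.95% in the tumours, against 5.42% and 9.02% at day 14 and 19.78% and 13.72% at day 0. Without sgRNA_2083 the difference of the summed log2 levels against day 0 was 2.42, and without sgRNA_2081 it was 2.57.

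The median over guides, which a single guide moves less than the sum, was 1.99 for BMPR2 in tumours against day 0, rank 1 of 348 genes, and the next gene, NKIRAS1, which encodes an inhibitor of NF-kappa-B signalling, stood at 1.39. Scaled to the non-targeting guides the BMPR2 median was 1.49, and by limma on the authors' normalized values, which averages the log2 levels of the libraries, it was 0.82. Tumour by tumour, the median log2 ratio to the day 0 mean was 2.57 in tumour 1 and 1.57 in tumour 2, again rank 1 in each. The median depended on the guide set. It was 3.06 over the 5 second set guides, rank 1 of 348 genes, and 1.31 over the 5 first set guides, rank 21 of the 299 genes with such guides. Against day 14 the second set had a median of 4.10 and the first set one of 0.28, rank 113 of 299, where the median of these genes was 0.16. Over all 10 guides the median against day 14 was 2.01, and 0.75 without tumour 1 or 2.81 without tumour 2. The difference between the guide sets was not tested.

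The culture arm asks whether cells with guides against BMPR2 became rarer or more frequent over 14 days without a host. Guides of the second set were lower at day 14 than at day 0 in 4 of 5 cases with no overlap of the libraries. The same held for 52.3% of all second set guides and 31.5% of all guides. By the fit 3 of these guides were at least 2-fold lower, as were 33.6% of all second set guides and 19.6% of all guides. None of the 5 passed the test. The log2 fold changes were -1.07 for sgRNA_2081, -1.05 for sgRNA_2082, -1.03 for sgRNA_2084 and -0.53 for sgRNA_2085 (edgeR's quasi-likelihood test, adjusted p from 0.61 to 0.86). sgRNA_2083, the BMPR2 guide with the highest log2 fold change in tumours against day 0, was at 0.11 in culture (adjusted p = 0.94 by edgeR). Its library pairs ranged from -0.10 to 0.29. First set guides were between 0.33 and 1.33 (edgeR, lowest adjusted p = 0.63), beside 0.50 for the non-targeting guides. The highest of them, sgRNA_118, had both cultures above both day 0 libraries.

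Over all 3607 guides edgeR called 0 lower and 0 higher at day 14 at an adjusted p under 0.05 (0% in each direction), and without adjustment 259 were lower and 44 higher at p under 0.05, none of them a guide of BMPR2 or WWP2. DESeq2 called 132 lower and 3 higher and limma on the authors' normalized values 0 and 0, again with no guide of either gene. The fit estimates the spread from all 6 libraries. On log2 CPM the tumours correlated at 0.66 and the day 0 libraries at 0.672, both less than the day 14 libraries at 0.85. Fitted to the day 14 and day 0 libraries alone, edgeR called 293 guides lower and 29 higher, and sgRNA_118 was among the higher ones at an adjusted p of 0.030. Without tumour 1, edgeR called 252 guides lower and 22 higher, with sgRNA_2081 lower (adjusted p = 0.048) and sgRNA_118 higher (0.027). Without tumour 2 it called 267 lower and 24 higher, with sgRNA_2081 (0.043) and sgRNA_2084 (0.047) lower and sgRNA_118 higher (0.048). Scaled to the non-targeting guides, sgRNA_2081, sgRNA_2082 and sgRNA_2084 stood at -1.58, -1.56 and -1.55, with unadjusted p of 0.011, 0.013 and 0.0097 by edgeR (adjusted p = 0.20, 0.21 and 0.19). On that scale sgRNA_118 stood at 0.83 (edgeR, adjusted p = 0.79).

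The BMPR2 gene sum did not differ from day 0 by the test, with a log2 fold change of 0.14 (edgeR, adjusted p = 0.83) and library pairs from 0.08 to 0.19. Of 348 gene sums, edgeR called 3 lower (0.862%) and 0 higher (0%) at day 14, and neither BMPR2 nor WWP2 was among them, nor among the 24 lower and 7 higher sums at an unadjusted p under 0.05. DESeq2 called 18 sums lower and 6 higher and limma 32 and 0, again without these genes. With a replicate block edgeR called 0 sums lower and 0 higher, with 21 and 4 at an unadjusted p under 0.05. The sign turned with the scaling. Relative to the non-targeting guides the BMPR2 sum was at -0.37 and was called lower (edgeR, adjusted p = 0.036), as were 40 of the 348 sums on that scale, on which the median of all guides was -0.49. By limma on the authors' values it was at -0.36 (adjusted p = 0.065). The guide sets moved apart inside this sum. First set guides together had 2353 and 2188 CPM at day 14, against 1166 and 1511 CPM at day 0, whereas second set guides had 804 and 1019 CPM at day 14, against 1642 and 1470 CPM at day 0. The 5 second set guides had a median of -1.03, beside -0.61 for the second set medians of all 348 genes, and ranked 98 from the lowest. BMPR2 was thus not among the genes with the strongest depletion in culture.

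WWP2 had a smaller tumour excess by its sum and its guide median, and fewer of its guides were at least 4-fold higher in tumours than at day 0 (2 of 10, against 5 of 10 for BMPR2). sgRNA_1464 of the first set had 1839 and 1980 CPM in the tumours, 401 and 277 CPM at day 14 and 207 and 301 CPM at day 0. Both tumours were well above the other 4 libraries, and the log2 fold change in tumours against day 0 was 2.91, or 7.52-fold, rank 38 of 3607 guides. sgRNA_2836 of the second set had 695.5 and 770.1 CPM in the tumours, 231 and 154 CPM at day 14 and 143 and 132 CPM at day 0, a log2 fold change of 2.42 with library pairs from 2.28 to 2.54. These are the only WWP2 guides that were at least 4-fold above day 0 in both tumours. sgRNA_1465 had 1033 and 1791 CPM in the tumours, 895 and 890.5 CPM at day 14 and 534 and 669 CPM at day 0. It was ordered tumours, culture, day 0 with no overlap, and its log2 fold change of 1.23 in tumours compares with 0.57 for the non-targeting guides.

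sgRNA_2838 was the only WWP2 guide with both tumours above and both cultures below both day 0 libraries. It had 576 and 459 CPM in the tumours, 167 and 160.1 CPM at day 14 and 278 and 257 CPM at day 0, with log2 fold changes of 0.95 in tumours and -0.71 at day 14 against day 0. sgRNA_1461 had 1203 and 513 CPM in the tumours, 471 and 540.4 CPM at day 14 and 419 and 377 CPM at day 0, so that both tumours were above day 0 and tumour 2 lay within the day 14 range. The other 5 guides were not higher in both tumours. sgRNA_1462 had 631 and 152.5 CPM in the tumours, against 282 and 309.6 CPM at day 0. sgRNA_2839 had 104 and 540.3 CPM in the tumours, 135 and 15.1 CPM at day 14 and 268 and 189 CPM at day 0, with tumour 1 below and tumour 2 above both day 0 libraries. sgRNA_2837, sgRNA_2840 and sgRNA_1463 had log2 fold changes of 0.02, -0.02 and -0.46 in tumours against day 0. Of these, sgRNA_1463 was lower in both tumours (81.5 and 101 CPM) than in both cultures (199 and 238 CPM), and sgRNA_2837 was higher in both tumours (206.5 and 449.5 CPM) than in both cultures (154 and 133 CPM).

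The WWP2 sum took 0.538% (95% Wilson interval 0.532 to 0.545) and 0.545% (0.540 to 0.550) of the counts in the tumours. At day 14 it took 0.368% (0.362 to 0.374) and 0.334% (0.329 to 0.340), and at day 0 0.324% (0.322 to 0.327) and 0.340% (0.335 to 0.346). The log2 fold change of the sum was 1.22 in tumours against day 0, or 2.34-fold, with library pairs from 1.15 to 1.29, rank 19 of 348 genes. Scaled to the non-targeting guides it was 0.72. Of the WWP2 counts, sgRNA_1464 alone took 27.6% in tumour 1 and 28.0% in tumour 2, against 12.3% and 9.23% at day 14 and 7.17% and 10.1% at day 0. Without it the difference of the summed levels against day 0 was 0.88. The guide median of WWP2 in tumours against day 0 was 0.72, also rank 19, beside 0.57 for the median of the non-targeting guides. Scaled to these it was 0.23, and by limma on the authors' normalized values -0.001. Against day 14 the guide median was 0.98, rank 4 of 348 genes, with 1.66 in the second set (rank 6) and 0.66 in the first (rank 33 of 299), and the sum was at 1.13, rank 20.

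In culture no WWP2 guide passed the test (edgeR, lowest adjusted p = 0.61). The second set had 4 guides lower than at day 0 by the fit, with log2 fold changes of -1.61 for sgRNA_2839, -1.18 for sgRNA_2837, -0.71 for sgRNA_2838 and -0.20 for sgRNA_2840, and sgRNA_2836 at 0.49. For sgRNA_2837, sgRNA_2838 and sgRNA_2839 both cultures were below both day 0 libraries, as for 52.3% of all second set guides and 31.5% of all guides. sgRNA_2839 was lowest in day 14 replicate 2, at 15.1 CPM, and its pairs ranged from -4.06 to -0.49. The first set guides were between 0.18 and 0.80, around the 0.50 of the non-targeting guides. The WWP2 sum was at 0.09 (edgeR, adjusted p = 0.95), and relative to the non-targeting guides at -0.41 (adjusted p = 0.15). Second set guides of WWP2 summed to 929 and 754 CPM at day 14, against 1358 and 1170 CPM at day 0, and their median of -0.71 compares with -0.61 over all genes.

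Counted over both genes, 12 of the 20 guides were at least 2-fold higher in tumours than at day 0 by the fit. They were 8 of BMPR2 and 4 of WWP2. The share was 20.4% of all guides and 31.1% of the non-targeting guides. By limma on the authors' normalized values it was 6 of 20, on a scale where the median of all guides was -0.61. The share of all guides on that scale is not given here, and the 20.4% does not apply to it. Against day 14, 11 of 20 were at least 2-fold higher by edgeR's fit, beside 17.6% of all guides. In 10 of 20, 5 of each gene, both tumours were above both day 0 libraries (23.9% of all and 42.6% of non-targeting guides). In 9 both were above both day 14 libraries (19.4% and 21.3%). At least 4-fold above the day 0 mean in each tumour were 5 of 20, beside 52 of all 3607 guides (1.44%). They were sgRNA_2081, sgRNA_2083 and sgRNA_2084 of BMPR2 and sgRNA_1464 and sgRNA_2836 of WWP2. None of the 20 guides had both tumours below both day 0 libraries, beside 30.6% of all guides and 3.83% of non-targeting guides. By the fit, 7 of 20 were at least 4-fold higher in tumours than at day 0 and 7 of 20 than at day 14, beside 4.74% and 4.35% of all guides. Since tumour values chose the genes, nothing is read from these shares. In culture, which did not choose the genes, 5 of 20 guides were at least 2-fold lower at day 14, beside 19.6% of all guides, and both cultures were below both day 0 libraries for 7 of 20, beside 31.5%. All 7 belonged to the second set, of whose guides 52.3% behaved so, against 8.04% of first set guides. The guides of BMPR2 and WWP2 were thus close to the library as a whole in culture. Lower in both cultures and higher in both tumours than at day 0 were sgRNA_2081, sgRNA_2082, sgRNA_2084 and sgRNA_2838, 4 of 20 guides beside 48 of 3607 (1.33%). On the authors' normalized values 5 of 20 guides and 79 of all guides (2.19%) had that pattern.

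Of 8 BMP and TGF-beta genes drawn up as a list, 5 are in the library, BMPR2 and WWP2 among them. In tumours against day 0 the gene medians of the other 3 are given one by one, since BMPR2 and WWP2 were chosen for high values there, and the median over all 348 genes was 0.01. At day 14 the gene medians were above 0 in 2 of 5, with a list median of -0.06 beside -0.05. TGFBRAP1, a protein that associates with TGF-beta receptors, had a guide median of -0.20 in tumours and -0.06 at day 14 against day 0. CDKN2B, a TGF-beta target that encodes the cyclin-dependent kinase inhibitor p15, was at 0.49 and -0.18, and FN1, which encodes fibronectin, was the lowest of the list at -0.76 and -0.28. Of the 5 gene sums, edgeR called 0 lower and 0 higher at day 14, with 0 at an unadjusted p under 0.05, and DESeq2 and limma called 0 too. SMAD9, a receptor SMAD of the BMP branch downstream of BMPR2, was added after the gene names had been read and its values seen. Its guide median was 0.35 in tumours, with 5 guides above and 5 below 0, and its sum in culture was at 0.16 (edgeR, adjusted p = 0.91). Its most abundant guide in tumours, sgRNA_1149, had 2761 and 202 CPM in the tumours, 430.2 and 268.5 CPM at day 14 and 129 and 269 CPM at day 0, and was thus high in tumour 1 alone. In tumours against day 0 the second set guides of SMAD9 had a median of -0.85, and those of BMPR2 3.06, beside -0.61 for all second set guides. The first set guides of SMAD9 had a median of 1.46, and those of BMPR2 1.31, beside 0.52 for all first set guides.

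Of 12 ubiquitin ligases and ligase subunits drawn up around WWP2, 7 are in the library. Their list median at day 14 was -0.23, with 3 of 7 above 0. In tumours against day 0 WWP2, which was chosen for its value there, was at 0.72, and PRPF19, a ligase of the spliceosome, was the lowest at -2.17. At day 14 PRPF19 was at -3.06 and WWP2 at 0.26, again the lowest and the highest, and of the 7 gene sums edgeR called 0 in either direction, with 1, that of PRPF19, lower at an unadjusted p under 0.05. DESeq2 and limma both called the PRPF19 sum lower. In tumours against day 14 the lowest guide median was that of BTRC, the substrate receptor of an SCF ligase, at -0.44, and WWP2 was at 0.98. Of 4 receptors with a kinase domain, 3 are in the library, with a list median of 0.22 at day 14. DDR1, a collagen receptor, had a guide median of 0.91 in tumours and 0.50 at day 14, beside 0.57 and 0.50 for the non-targeting guides. ROR1, a Wnt receptor, was the lowest of the 3 at -0.03 in tumours and 0.10 at day 14. Of their sums edgeR called 0 at day 14, with 0 at an unadjusted p under 0.05, and DESeq2 and limma called 0.

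The gene sums whose levels over the 6 libraries ran most like that of BMPR2 were WWP2 (r = 0.994), KIF5C (r = 0.988) and RNF130 (r = 0.987), by Pearson's r of log2 of the summed CPM plus 1. For WWP2 they were BPNT1 (r = 0.996), BMPR2 and BRWD1 (r = 0.984). These coefficients describe 6 points that fall into tumours on one side and the other 4 libraries on the other. BMPR2 and WWP2 were both chosen for high tumour values, so nothing is read from their r with each other. KIF5C encodes a kinesin heavy chain, RNF130 a RING-type ubiquitin ligase and BPNT1 a nucleotidase that removes phosphate from bisphosphate nucleotides. Their sums were higher in tumours than at day 0 by 1.55, 1.31 and 1.74 on the log2 scale, between WWP2 at 1.22 and BMPR2 at 2.81, and that of BRWD1 by 0.75.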

How the data were processed

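The authors deposited raw counts per guide, for which MAGeCK assigned the read pairs to the library's guides, and the submitters' processing notes also name hg38, both without a version. In a second deposited table the normalized signal is the count times 1 factor per library. The sources used here do not give how these factors were set. Columns were matched to samples by name.

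The 3607 of 3653 guides that averaged 30 counts or more at day 0 entered 1 quasi-likelihood model of the 3 groups in edgeR 4.0.16 (R 4.3.3), with TMM scaling, as did the counts summed per gene in a model of their own. The p-values for day 14 against day 0 were adjusted by the Benjamini-Hochberg method over all guides or all 348 genes, at a threshold of 0.05. A gene median is the median log2 fold change over the kept guides of the gene. DESeq2 1.42.0 and limma 3.58.1 (run on log2 of 1 plus the authors' normalized values) were alternatives, as were other scalings, no filter, a fit of 2 groups, a replicate block and each library left out in turn. The procedure was tested on simulated data with a smaller dispersion than that of the guides here. The planted changes were larger than those of BMPR2 and WWP2 guides in culture. It therefore does not show how often changes of their size would be called. The common dispersion was 0.303 over guides and 0.0413 over gene sums. Replicates are 2 per group, so p-values measure the spread between these libraries.

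By the study's methods each transduction gave a day 0 aliquot and was divided between the arms, so samples of day 0 and day 14 with the same replicate number count as pairs. Differences between the replicates correlated at 0.0694 over guides for day 0 and day 14, and at 0.00198 and 0.00252 for the tumours with day 0 and with day 14. BMPR2 and WWP2 and the gene lists were chosen with earlier results of these data known. Every guide of BMPR2 and WWP2 is described, and of the lists the members with the highest and lowest gene median were to be named, with the 3 genes closest in pattern to each gene. TGFBRAP1, CDKN2B and SMAD9 were named outside this rule, after their values were seen. Python 3.11.15 with pandas 2.3.3 and statsmodels 0.14.6 made the tables.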

Additional observations from a re-analysis of the deposited data

Results flagged for a closer look

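For 4 guides the arms moved in opposite directions: both cultures were below and both tumours above both day 0 libraries. The log2 fold change of tumours against day 14 was 4.68 for sgRNA_2081, 3.48 for sgRNA_2082 and 4.10 for sgRNA_2084 of BMPR2, and 1.66 for sgRNA_2838 of WWP2. The difference between the arms was not tested for these guides, because the tumour values chose the genes. With 2 libraries in each group, 48 of all 3607 guides show such an order.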

How the results depend on the processing

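The direction of the change in culture depended on the scaling. With scaling to the non-targeting guides the day 14 gene sums were -0.37 for BMPR2 and -0.41 for WWP2 and the gene medians -0.30 and -0.24, and by limma on the authors' normalized values the sums were -0.36 and -0.41 and the medians -0.29 and -0.25. On these scales the median of the non-targeting guides at day 14 was -0.001 and 0.02, and on the TMM scale 0.50. Over second set guides the medians at day 14 were -1.03 and -0.71, and the WWP2 median over first set guides was 0.42. In tumours against day 0, scaling to the non-targeting guides gave sums of 2.30 and 0.72 and medians of 1.49 and 0.23. For the same comparison limma gave sums of 2.30 and 0.71 and medians of 0.82 and -0.001. It put 6 of the 20 guides at least 2-fold higher, and the share of all guides by limma is not given here. The WWP2 sum was 1.32 with median-ratio size factors and 1.32 in the fit of 2 groups, which called 1 guide of the 20 higher at day 14. At a threshold of 4-fold, 7 of the 20 guides were higher against day 0 (4.74% of all guides) and 7 against day 14 (4.35%). By guide set, the tumour medians were 1.31 (first) and 3.06 (second) for BMPR2 and 1.11 and 0.50 for WWP2 against day 0, and 0.28 and 4.10 for BMPR2 and 0.66 and 1.66 for WWP2 against day 14, where limma gave 1.38 for BMPR2. With a replicate block the BMPR2 median in tumours against day 0 was 1.51, the day 14 sums were 0.14 (edgeR, adjusted p = 0.86) and 0.09 (0.97), and no call of either gene or its guides changed.

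Leaving out each library in turn, the tumour sums against day 0 ranged from 2.71 to 2.91 for BMPR2 and from 1.18 to 1.32 for WWP2, and against day 14 from 2.57 to 2.77 and from 1.09 to 1.25. The tumour medians against day 0 ranged from 1.54 (without tumour 1) to 2.55 (without tumour 2) for BMPR2 and from 0.63 to 0.99 for WWP2, and against day 14 from 0.75 (without tumour 1) to 2.81 (without tumour 2) and from 0.72 to 1.25. At day 14 the medians ranged from -0.064 (without day 14 replicate 2) to 0.25 for BMPR2 and from 0.12 (without day 14 replicate 1) to 0.32 for WWP2, and 0 to 2 of the 20 guides were called lower and 0 to 1 higher. Of all 348 sums at day 14, edgeR called 0 or 1 lower without any 1 of the day 0 and day 14 libraries, and 45 and 43 without tumours 1 and 2. With 2 libraries per group, 3 residual degrees of freedom were left for each guide. The counts of non-overlapping guides on the authors' normalized values were added after seeing the data. Both tumours were above day 0 for 9 of 20 (12.1% of all guides) and above day 14 for 10 (19.1%). Both cultures were below day 0 for 10 (51.6%), and 5 also had both tumours above it (2.19%). All 4 counts were within 1.5 times of those reported, but the shares of all guides moved. The share with both cultures below day 0 was 31.5% on the TMM scale.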
